A study of Mus musculus with 6 samples.

Results

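Cpxm2 and 7 related metallocarboxypeptidase genes (Cpxm1, Aebp1, Cpe, Cpd, Cpm, Cpz and Cpa3) were followed in the adult left ventricle. They are 8 of the 43629 gene identifiers counted, and each was taken by its mouse gene symbol. Cpxm2 was chosen because it had been called in the same comparison of caffeine with vehicle hearts that is described here, so its difference is a description and not a test. The other 7 were chosen as members of its family.

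The question of the study was whether caffeine before birth leaves a mark on gene expression in the adult heart. The ventricles came from male F1 offspring of CD-1 mice at 1 year of age, 3 with mothers injected intraperitoneally with normal saline (vehicle) and 3 whose mothers received caffeine at 20 mg/kg. Injections were given once a day from embryonic day 6.5 to 9.5 by the study's methods and its sample descriptions, while another field of the labels ends them at 10.5. No F1 animal was itself injected, and all 6 hearts share strain, sex, age and sequencing run. Litters are not given in the sources used here, and p-values measure the spread between hearts of the same treatment. If hearts of a treatment shared a dam, litter and treatment could not be told apart. Total counts were 9228359 to 10483101 in the vehicle hearts and 7613011 to 9153997 in the caffeine hearts, and each caffeine total was below each vehicle total. Marker genes were read beside the label left ventricle. The 6 genes listed as ventricular cardiomyocyte markers together held 43325 to 52082 CPM (counts scaled to a common library size). This sum by itself does not tell ventricle from atrium, and no marker used separates left from right ventricle. The atrial markers Myl7 and Sln had at most 2 counts in a heart, and the atrial marker Myl4 had 5 to 18 counts.

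Metallocarboxypeptidases of the M14 family remove amino acids one at a time from the C-terminal end of peptides and proteins, using a zinc ion and a catalytic glutamate. The branch around carboxypeptidase E prefers lysine and arginine, the residues left on hormone precursors after prohormone convertases have cut them. Several members of this branch, among them Cpxm2, lack residues that catalysis needs and are best known as secreted proteins with a collagen-binding discoidin domain.

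The difference within the family is visible in the coding sequence. The 45 coding bases around the codon that corresponds to the catalytic glutamate of Cpe are shown because the members differ in whether they hold this residue. Bases are written 5′ to 3′ on the coding strand, from the GENCODE M21 transcripts of GRCm38, and the capitals mark the codon aligned with that glutamate.
Cpxm2, chr7:132049055-132049099, minus strand: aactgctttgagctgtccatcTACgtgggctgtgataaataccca
Aebp1, chr11:5870543-5870587, plus strand: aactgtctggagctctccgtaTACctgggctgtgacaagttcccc
Cpxm1, chr2:130393137-130393181, minus strand: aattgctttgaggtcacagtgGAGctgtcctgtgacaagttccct
Cpe, chr8:64606669-64606713, minus strand: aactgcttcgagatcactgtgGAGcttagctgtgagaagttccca
Cpz, chr5:35506738-35506782, minus strand: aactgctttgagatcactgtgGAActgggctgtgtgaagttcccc
Cpm, chr10:117675972-117676016, plus strand: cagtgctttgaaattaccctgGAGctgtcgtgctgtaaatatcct
Cpd repeat 1, chr11:76814837-76814881, minus strand: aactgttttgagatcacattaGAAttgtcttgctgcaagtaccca
Cpd repeat 2, chr11:76801706-76801750, minus strand: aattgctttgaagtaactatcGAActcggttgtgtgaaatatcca
Cpd repeat 3, chr11:76786337-76786381, minus strand: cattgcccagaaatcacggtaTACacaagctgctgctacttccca

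The codon read GAG or GAA, for glutamate, in 6 of these 9 copies. It read TAC, for tyrosine, in the other 3, which were Cpxm2, Aebp1 and the last of the 3 carboxypeptidase repeats of Cpd. In Cpxm2 this is codon 618 of 764, in exon 12 of 14. The alignment of Cpa3 with Cpe did not extend to this codon, so Cpa3 is not shown.

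A second active-site codon, for a histidine that holds the zinc ion, is printed for Cpe and for the 3 copies in which it is not a histidine codon, again in capitals.
Cpe, chr8:64611399-64611443, minus strand: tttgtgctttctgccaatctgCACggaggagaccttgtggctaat
Cpxm2, chr7:132054936-132054980, minus strand: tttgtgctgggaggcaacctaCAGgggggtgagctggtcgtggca
Aebp1, chr11:5870124-5870168, plus strand: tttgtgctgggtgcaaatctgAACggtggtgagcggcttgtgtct
Cpd repeat 3, chr11:76791892-76791936, minus strand: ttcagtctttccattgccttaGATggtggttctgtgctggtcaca

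The capitals read glutamine in Cpxm2, asparagine in Aebp1 and aspartate in repeat 3 of Cpd. The same 6 copies kept both the glutamate and the histidine codon, and Cpxm1 was among them. At another aligned codon, for a substrate-binding arginine, Cpxm1 read histidine, Cpxm2 asparagine, Aebp1 glutamate and repeat 3 of Cpd threonine, while the 6 other copies, Cpa3 included, read arginine. Local alignments of the translated sequences covered part of each protein. In them Cpxm2 (764 residues) had its highest identity with Cpxm1, at 59.0% of 622 aligned residues, and with Aebp1, at 58.0% of 685. Identity was 48.9% of 372 residues with Cpd, 46.9% of 409 with Cpe, 44.4% of 396 with Cpz, 40.5% of 348 with Cpm and 27.0% of only 137 with Cpa3. No stretch of 75 bases, the read length, was shared between any of the 8 members, so a read within an exon can be told apart among them.

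Cpxm2 was the only one of the 6 members tested that was called, against 0.107% of all 13092 genes tested (14 genes, with 0.0840% called higher and 0.0229% called lower in caffeine hearts). A call needed an adjusted p (Benjamini-Hochberg, edgeR quasi-likelihood test) below 0.05 and a fold change above 1.5. The other 2 members, Cpz and Cpa3, had too few counts to be tested. Of the 6 tested, 3 had a positive and 3 a negative log2 fold change, with a median of -0.0074, beside 0.00088 over all genes. Because Cpxm2 was selected by this call, the count of 1 is given beside the background and nothing is read from it.

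**Figure D1:**
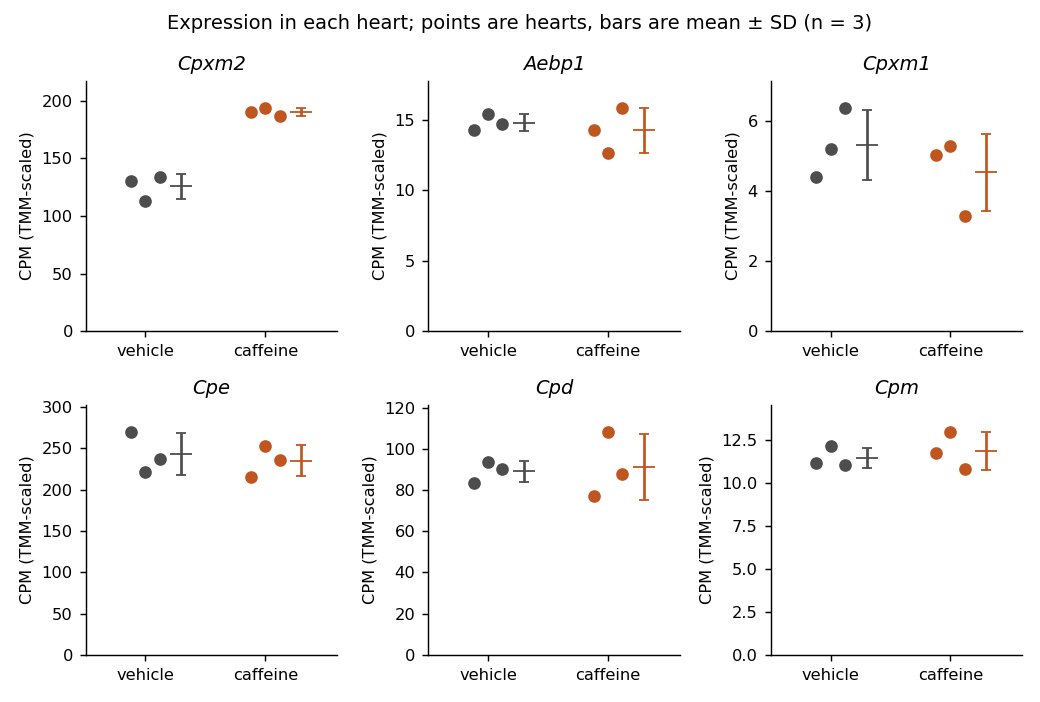
Normalised expression of the 6 tested members in each left ventricle. The y axis of each panel is CPM with TMM scaling and starts at 0, points are hearts, and the bars beside them give the mean ± SD of 3 hearts. The Cpxm2 values of the caffeine hearts, 186 to 194 CPM, lie above those of the vehicle hearts, 113 to 134 CPM, and in the other 5 panels the treatments overlap.

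Cpxm2 (ENSMUSG00000030862) encodes a secreted carboxypeptidase-like protein with a discoidin domain and lies on chr7:132032687-132154739 of GRCm38, minus strand. It had 1335, 1197 and 1318 counts in vehicle hearts 1 to 3 and 1360, 1716 and 1589 counts in caffeine hearts 1 to 3. The counts were higher in each caffeine heart than in any vehicle heart although the caffeine libraries were the smaller ones. After scaling, the vehicle hearts had 130, 113 and 134 CPM and the caffeine hearts 190, 194 and 186 CPM, a gap of 52.8 CPM between the lowest caffeine and the highest vehicle heart. The 3 caffeine hearts lay close together, and the treatments did not overlap, as held for 14.2% of all genes tested. The mean was 126 ± 10.9 CPM (SD, n = 3) in vehicle and 190 ± 3.68 CPM in caffeine hearts, so that the coefficient of variation was 8.67% and 1.94%.

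The log2 fold change of Cpxm2 was 0.60 with a standard error of 0.089, a 1.51-fold difference with a 95% interval of 1.32 to 1.73. These are the values by which the gene was selected, and they stood at both edges of the call. The adjusted p of 0.0325 from edgeR's quasi-likelihood test was the highest of the 14 called genes, beside 0.0311 for Gdf15 just inside the threshold and 0.0578 for Cacng6 just outside it. The log2 fold change, 0.597 to 3 decimals, compares with a threshold of 0.585. The call was lost when vehicle heart 2 or any of the 3 caffeine hearts was left out, with log2 fold changes of 0.53 to 0.61 and adjusted p-values of 0.0935 to 0.143 in edgeR's test. It was also lost without TMM scaling (log2 fold change 0.51, adjusted p = 0.0589 in edgeR) and, by the fold threshold alone, without the filter on low counts (0.576).

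In a piece of ventricle, more RNA per cell and more cells of an expressing type cannot be told apart. Reads of the Cpxm2 locus could in principle belong to the antisense gene Gm15677, which shares 351 exon bases with it. This holds if the libraries did not keep strand, which the study's methods do not state. The 75-base windows of Cpxm2 shared with Gm15677 were 6.09% of all its windows, and Gm15677 itself had 0 counts in each of the 6 hearts. Reads over bases that both genes share may be counted for neither, so this 0 does not settle the question, which was not tested.

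**Figure D2:**
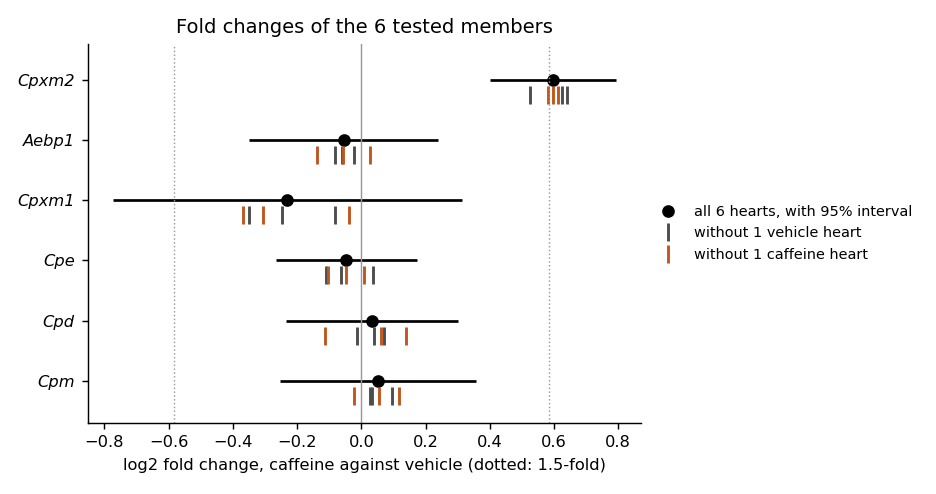
Log2 fold change of caffeine against vehicle hearts for the 6 tested members. Black points are the fit of all 6 hearts with the 95% interval, ticks below them are fits with 1 heart left out, and dotted lines mark a 1.5-fold difference; the Cpxm2 point sits at 0.60 beside the dotted line, and the intervals of the other 5 include 0.

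The 2 members with the highest identity to Cpxm2 were not called. Aebp1 (ENSMUSG00000020473, chr11:5861947-5872088, plus strand) encodes a secreted discoidin protein, also called aortic carboxypeptidase-like protein, that binds collagen in connective tissue. Aebp1 was at 14.3, 15.4 and 14.7 CPM in vehicle hearts 1 to 3 and at 14.3, 12.6 and 15.8 CPM in caffeine hearts 1 to 3. The caffeine hearts spread on both sides of the vehicle range. The means were 14.8 ± 0.587 CPM and 14.3 ± 1.59 CPM (SD, n = 3), and the log2 fold change was -0.055 with a 95% interval of -0.35 to 0.24 (edgeR adjusted p = 0.950), turning to 0.027 without caffeine heart 2.

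Cpxm1 (ENSMUSG00000027408, chr2:130390775-130397574, minus strand) encodes a further secreted discoidin member, the one of these 3 that kept the glutamate and histidine codons. Cpxm1 had 4.40, 5.20 and 6.38 CPM in vehicle hearts 1 to 3 and 5.04, 5.31 and 3.28 CPM in caffeine hearts 1 to 3. One caffeine heart was below each vehicle heart and the other 2 were inside their range. The means were 5.33 ± 0.999 CPM and 4.54 ± 1.10 CPM (SD, n = 3). The log2 fold change was -0.23, with a wide 95% interval of -0.77 to 0.31 (edgeR adjusted p = 0.851). Cpxm1 had 28 to 63 counts per heart, where counting alone gives a coefficient of variation of 18.9% in the heart with the fewest, and its biological coefficient of variation in the fit, 17.3%, was the highest of the 6 members. No difference was detected, and the interval does not give the size of difference that would have been called.

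Cpe (ENSMUSG00000037852, chr8:64592542-64693054, minus strand) encodes carboxypeptidase E, which trims basic residues from hormone and neuropeptide precursors in secretory granules. Vehicle hearts 1 to 3 held 270, 221 and 237 CPM of Cpe and caffeine hearts 1 to 3 held 216, 253 and 236 CPM. The ranges of the treatments overlapped. The means were 243 ± 24.9 CPM and 235 ± 18.7 CPM (SD, n = 3), and the log2 fold change was -0.047 with a 95% interval of -0.27 to 0.17 (edgeR adjusted p = 0.941). The sign turned without vehicle heart 1 (0.036) and without caffeine heart 1 (0.0097).

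Cpd (ENSMUSG00000020841, chr11:76778424-76847018, minus strand) encodes carboxypeptidase D, a membrane enzyme of the trans-Golgi network that acts on proteins of the constitutive secretory pathway. Its levels were 83.4, 93.7 and 90.2 CPM in vehicle hearts 1 to 3 and 76.9, 108 and 87.8 CPM in caffeine hearts 1 to 3. The caffeine hearts held both the lowest and the highest value. The means were 89.1 ± 5.21 CPM and 91.0 ± 16.0 CPM (SD, n = 3). The log2 fold change was 0.033 with a 95% interval of -0.23 to 0.30 (edgeR adjusted p = 0.968), and it became -0.053 when only library size was used for scaling.

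Cpm (ENSMUSG00000020183, chr10:117629500-117687352, plus strand) encodes carboxypeptidase M, an enzyme anchored on the outer cell surface that removes the terminal arginine or lysine of kinins and anaphylatoxins. Cpm was at 11.1, 12.1 and 11.0 CPM in vehicle hearts 1 to 3 and at 11.8, 13.0 and 10.8 CPM in caffeine hearts 1 to 3. The treatments overlapped. The means were 11.4 ± 0.592 CPM and 11.8 ± 1.10 CPM (SD, n = 3), and the log2 fold change was 0.051 with a 95% interval of -0.25 to 0.36 (edgeR adjusted p = 0.955), or -0.034 with library size only.

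The intervals of Aebp1, Cpe, Cpd and Cpm all end below the 1.5-fold lines on either side. Caffeine heart 2 had the highest value of the caffeine hearts for Cpxm1, Cpxm2, Cpe, Cpd and Cpm, and the lowest for Aebp1.

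Cpz and Cpa3 were close to absent from these libraries. Cpz (ENSMUSG00000036596, chr5:35502218-35525698, minus strand), a matrix-bound enzyme with a frizzled-type domain, had 1 count in vehicle heart 2, 2 counts in caffeine heart 3 and 0 in the other 4 hearts. Cpa3 (ENSMUSG00000001865, chr3:20215620-20242181, minus strand), a protease of mast cell granules, had 1 count in vehicle heart 3 and 0 in the other 5. A count of 0 allows a level of up to 0.286 to 0.394 CPM at these depths, counting error only, and no fold change is given for either gene. This limit was taken from total counts without TMM scaling, unlike the other CPM values.

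The low Cpa3 count was set beside 10 other mast cell markers. Hdc, the histidine decarboxylase that makes histamine, had 2.53 to 2.83 CPM in vehicle and 2.71 to 2.81 CPM in caffeine hearts. Kit, the stem cell factor receptor, had 1.32 to 2.43 CPM and 1.26 to 4.10 CPM (log2 fold change 0.83, edgeR adjusted p = 0.619). The mast cell protease genes Cma1, Mcpt4, Tpsb2 and Tpsab1 and the receptor gene Fcer1a had at most 3 counts in a heart. Ms4a2, Mrgprb1 and Mrgprb2 were at 0 in each heart, where the same limit holds. Summed over the list, the range was 4.35 to 5.47 CPM in vehicle and 5.04 to 7.39 CPM in caffeine hearts, and most of it came from Hdc and Kit, which other cells of the heart can also express.

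Between genes, levels are comparable only per length, here as CPM per kb of exon. In vehicle hearts Cpe was highest at 93.1 ± 9.55 CPM per kb (SD, n = 3), followed by Cpxm2 at 27.2 ± 2.36, Cpd at 10.7 ± 0.625, Aebp1 at 3.65 ± 0.145, Cpxm1 at 2.19 ± 0.411 and Cpm at 1.92 ± 0.0993. Cpe thus stood at percentile 96.4 and Cpxm2 at percentile 88.2 of all genes tested, while Aebp1, Cpxm1 and Cpm were in the lower part, at percentiles 47.2, 34.1 and 31.0. Each of the first 4 was above the next in order in all 3 vehicle hearts, with no overlap of their ranges. Cpxm1 and Cpm overlapped and did not differ beyond their spread.

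The order of the first 4 was the same in caffeine hearts, again with no overlap between neighbours. There Cpe stood at 90.1 ± 7.16 CPM per kb, Cpxm2 at 41.1 ± 0.797, Cpd at 10.9 ± 1.92, Aebp1 at 3.51 ± 0.393, Cpm at 1.99 ± 0.184 and Cpxm1 at 1.87 ± 0.452. The mean level of Cpe was 3.42 times that of Cpxm2 in vehicle and 2.19 times in caffeine hearts. The same order held when the length of the longest coding transcript was used in place of all exons, which put Cpxm2 at 35.9 and Cpe at 115 CPM per kb in vehicle hearts.

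**Figure D3:**
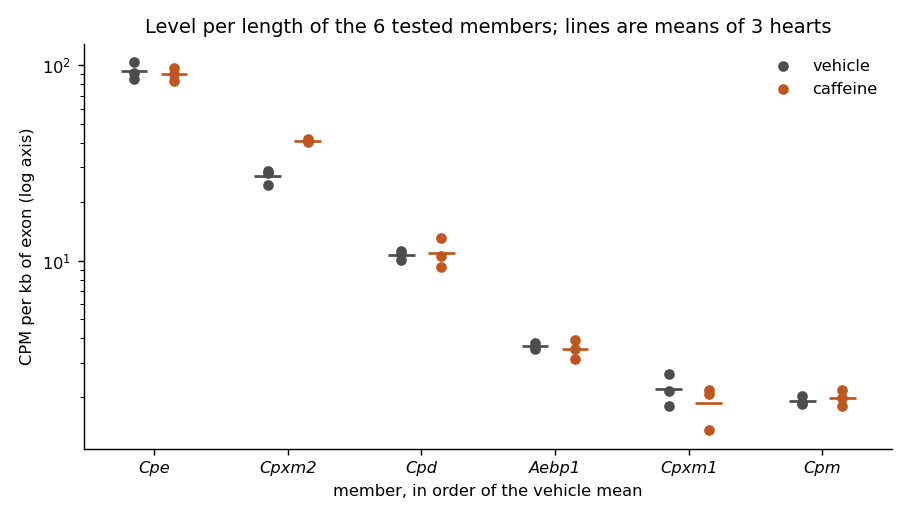
Level per length of the 6 tested members, in order of the vehicle mean. The y axis is CPM per kb of exon on a log scale, points are hearts (grey vehicle, orange caffeine) and short lines are means of 3; Cpe, Cpxm2, Cpd and Aebp1 stand on separate levels in both treatments and Cpxm1 and Cpm share one.

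Cpxm2 made up 18.9%, 19.1% and 20.8% of the summed per-length level of the 8 members in vehicle hearts 1 to 3, and 29.3%, 26.3% and 27.1% in caffeine hearts 1 to 3. The ratio of Cpxm2 to Cpe per length was 0.293 ± 0.0228 in vehicle and 0.459 ± 0.0349 in caffeine hearts (SD, n = 3). By role, the 3 discoidin members Cpxm1, Cpxm2 and Aebp1 summed to 33.0 ± 2.38 CPM per kb in vehicle and 46.5 ± 0.850 in caffeine hearts, while Cpe, Cpd, Cpm and Cpz summed to 106 ± 8.84 and 103 ± 9.15. Cpxm2 gave most of the first sum in each treatment, and since it was selected on its difference, these sums are a description.

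Genes that share a family, a domain or a pathway with the members were read from the same fit. None of them was called in either direction in any list below, against a background of 0.107%. An unadjusted p below 0.05 was reached by 8.82% of all genes tested, and its count is given with each list. The p-values of single genes come from edgeR's quasi-likelihood test. The less strict tests called more genes of the whole table, 0.718% with edgeR's exact test, 0.771% with its likelihood ratio test and 0.512% with DESeq2, against 0.107% with limma-voom. Across all lists these added 4 genes, which are named with their lists.

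Among 14 other M14 carboxypeptidases, 3 had enough counts for testing and 6 were at 0 in each heart, among them the plasma enzymes Cpn1 and Cpb2. The digestive enzymes Cpa1 and Cpb1 had 1 count each in all. The 3 tested belong to the cytosolic branch that shortens the glutamate tails of tubulin. Agtpbp1 had 145 to 199 CPM in vehicle and 104 to 127 CPM in caffeine hearts, with no overlap, at a log2 fold change of -0.54 (adjusted p = 0.189). It was the 1 gene of the list with an unadjusted p below 0.05. Agbl5 had 6.25 to 6.34 CPM and 6.44 to 8.09 CPM, also without overlap (0.17, adjusted p = 0.846), and Agbl3 had 2.05 to 2.43 CPM and 1.81 to 3.78 CPM (0.21, adjusted p = 0.901). The lack of overlap in Agtpbp1 and Agbl5 stands beside 14.2% of all genes.

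Prohormone processing places Cpe between the convertases that cut a precursor and the enzyme that amidates the product. Of 17 genes, 9 were tested, with 3 positive and 6 negative log2 fold changes and a median of -0.094. Pam, the amidating enzyme and the gene of highest level in the list, had 999 to 1110 CPM in vehicle and 1186 to 1492 CPM in caffeine hearts (log2 fold change 0.31, adjusted p = 0.358). The convertase Furin had 276 to 316 CPM and 205 to 245 CPM (-0.39, adjusted p = 0.213). Corin, the protease that cuts pro-atrial natriuretic peptide on the cardiomyocyte surface, had 186.3 to 213 CPM and 131 to 186.0 CPM (-0.36, adjusted p = 0.408). These 3 and 2 further genes, Pcsk7 (higher) and Pcsk4 (lower), which were picked after their values were seen, had treatments that did not overlap, 5 of 9 beside 14.2% of all genes. Pam, Furin, Corin and Pcsk4 were the 4 with an unadjusted p below 0.05. The convertases of neuroendocrine granules, Pcsk1 and Pcsk2, had at most 2 counts in a heart, and Chga, Scg5 and Pcsk1n were at 0 in each heart. Cpe was thus read out in a tissue in which these partners of its neuroendocrine role were at or near 0.

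The kinin and anaphylatoxin list bears on the substrates of Cpm. Of 13 genes with an identifier, 7 were tested, with 3 positive and 4 negative log2 fold changes and a median of -0.092, and the treatments overlapped for each. The number with an unadjusted p below 0.05 was 0. The complement component C3 had the highest level of the list, at 55.8 to 130 CPM in vehicle and 71.3 to 191 CPM in caffeine hearts (0.36, adjusted p = 0.824). The peptidases Ace (0.044, adjusted p = 0.948) and Mme (-0.097, adjusted p = 0.921) degrade kinins. The kinin receptors Bdkrb1 and Bdkrb2 had at most 6 counts in a heart, and the kininogens Kng1 and Kng2 had 0.

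Discoidin-domain genes that share the domain of Cpxm2, Cpxm1 and Aebp1 were tested in 9 of 14 cases, with 2 positive and 7 negative log2 fold changes and a median of -0.056. Treatments overlapped for all 9, and 0 had an unadjusted p below 0.05. The semaphorin and VEGF co-receptor Nrp1 (-0.0086, adjusted p = 0.991), the phagocytosis bridge Mfge8 (0.086, adjusted p = 0.849) and the collagen receptor Ddr1 (-0.15, adjusted p = 0.760) had the highest levels. Of 19 genes with the frizzled-type domain found in Cpz, 13 were tested, 7 with a positive and 6 with a negative log2 fold change and a median of 0.070. The Wnt receptor Fzd4 had 38.3 to 41.1 CPM in vehicle and 29.3 to 36.5 CPM in caffeine hearts (-0.25, adjusted p = 0.548), Fzd6 had a log2 fold change of 0.14 (adjusted p = 0.805) and the secreted Wnt antagonist Sfrp1 one of 0.25 (adjusted p = 0.681). Fzd4 and Fzd8, the latter named after its values were seen, were the 2 without overlap, both lower in caffeine hearts (2 of 13, beside 14.2% of all genes), and the 2 with an unadjusted p below 0.05.

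Collagen fibril assembly is the process in which Aebp1 is known to act. Of 11 genes, 10 were tested, 8 with a positive and 2 with a negative log2 fold change, and the median was 0.24. Col3a1, a fibril collagen of soft tissue, had 83.9 to 136 CPM in vehicle and 148 to 208 CPM in caffeine hearts with no overlap (log2 fold change 0.73, adjusted p = 0.189). In this it was 1 of 10, beside 14.2% of all genes. It was called higher by edgeR's exact and likelihood ratio tests and by DESeq2. It and Col1a1, named after its values were seen, had an unadjusted p below 0.05. The fibril collagen Col1a2 (0.17, adjusted p = 0.657) and the collagen lysyl hydroxylase Plod1 (0.11, adjusted p = 0.780) overlapped between treatments.

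**Figure D4:**
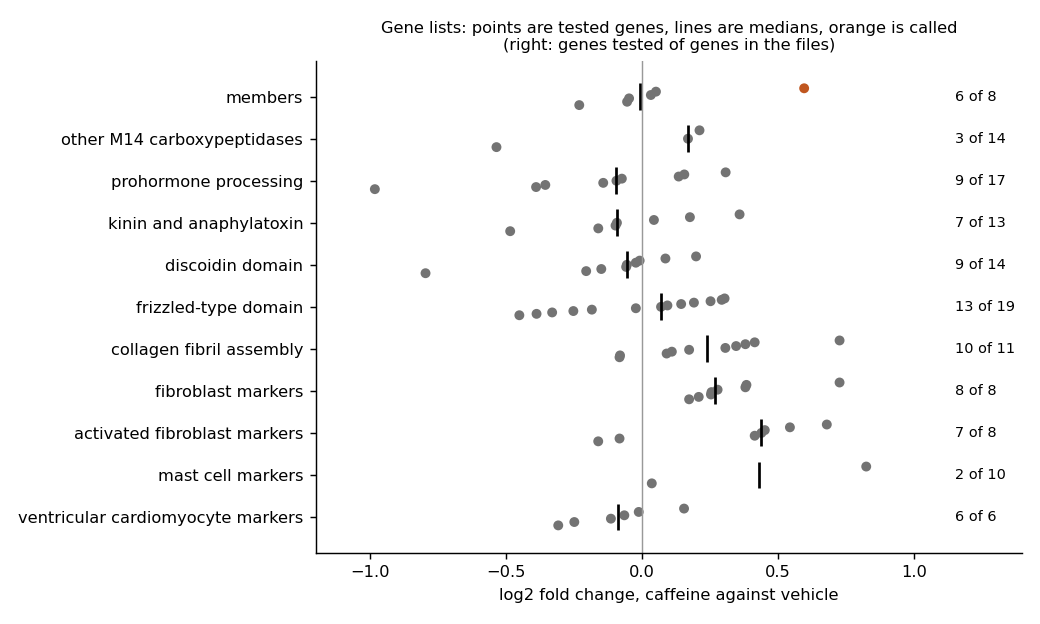
Log2 fold changes of the tested genes in 11 of the gene lists. The x axis is caffeine against vehicle hearts, grey points are genes that were not called, the orange point is Cpxm2, black lines are list medians and the numbers on the right give genes tested of genes with an identifier. Medians of the lists plotted run from -0.094 for prohormone processing to 0.44 for activated fibroblast markers, and Cpxm2 is the 1 called gene.

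Markers of ventricular cell types were set beside Cpxm2. All 8 fibroblast markers were tested, all 8 had a positive log2 fold change (median 0.27) and none was called, while 4 (Dcn, Lum, Col1a1 and Col3a1) had an unadjusted p below 0.05. Their summed level was 932 to 1118 CPM in vehicle and 1179 to 1393 CPM in caffeine hearts, which do not overlap. Dcn, a collagen-binding proteoglycan, was at 505 to 581 CPM and 608 to 767 CPM (0.28, adjusted p = 0.446). Lum, a related proteoglycan, was at 85.5 to 102 CPM and 101 to 120 CPM (0.26, adjusted p = 0.481). Dcn and Col3a1 did not overlap between treatments, 2 of 8 beside 14.2% of all genes. In vehicle hearts Dcn had a mean of 552 CPM, out of 1014 CPM for the list. Col1a1, Col1a2 and Col3a1 are also in the collagen list.

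Activated fibroblast markers, known for their rise in remodelling hearts, were tested in 7 of 8 cases, 5 with a positive and 2 with a negative log2 fold change and a median of 0.44. Their sum was 70.0 to 80.9 CPM in vehicle and 88.1 to 105 CPM in caffeine hearts, again with no overlap. Both Postn and Meox1 had an unadjusted p below 0.05 and no overlap, 2 of 7 beside 14.2% of all genes without overlap. The matricellular gene Postn, which edgeR's exact and likelihood ratio tests called higher, had a log2 fold change of 0.68 (adjusted p = 0.228), the transcription factor Meox1 one of 0.54 (adjusted p = 0.226) and the fibronectin gene Fn1 one of -0.083 (adjusted p = 0.945). None of these markers was at 0 in any group as a whole. Aebp1, which fibroblasts are known to express, had a log2 fold change of -0.055, while all 8 fibroblast markers had a positive one. The part of fibroblast RNA in the Cpxm2 difference was not tested.

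The remaining marker lists held no gene called by the quasi-likelihood test, and 3 genes with an unadjusted p below 0.05, which were Adgre1, Fcgr1 (both named after their values were seen) and Dbh. All 5 macrophage markers had a positive log2 fold change (median 0.34), with sums of 39.5 to 58.0 CPM in vehicle and 47.3 to 72.4 CPM in caffeine hearts. The scavenger receptor gene Mrc1 (0.21, adjusted p = 0.857), the receptor gene Csf1r (0.34, adjusted p = 0.608) and the lysosomal gene Cd68 (0.053, adjusted p = 0.981) had the highest levels. Adgre1 had a log2 fold change of 0.93 (adjusted p = 0.226) and was called higher by edgeR's exact and likelihood ratio tests. Treatments did not overlap for Csf1r, Adgre1 and Fcgr1, 3 of 5 macrophage markers beside 14.2% of all genes. The 6 ventricular cardiomyocyte markers had a median of -0.090, with Myh6 at -0.31 (adjusted p = 0.599), Actc1 at 0.15 (adjusted p = 0.681) and Myl2 at -0.012 (adjusted p = 0.988). Medians were 0.023 for 4 endothelial markers, with vehicle and caffeine means of 182 and 181 CPM for Cdh5, 172 and 179 CPM for Pecam1 and 163 and 143 CPM for Kdr, and -0.10 for 5 mural cell markers led by Rgs5, Acta2 and Pdgfrb. The adipocyte markers Cidec, Plin1 and Adipoq were not tested, at 0 to 11 counts per heart. The noradrenaline-synthesis gene Dbh, in the nerve and Schwann cell list, had 17.0 to 22.0 CPM in vehicle and 6.10 to 12.6 CPM in caffeine hearts (log2 fold change -1.06, adjusted p = 0.134), and edgeR's exact and likelihood ratio tests and DESeq2 called it lower. S100b had 4 to 8 counts in a heart and Th had 0. The leukocyte gene Ptprc had a log2 fold change of 0.22 (adjusted p = 0.897), beside Cd3e and Cd79a with at most 7 counts, and the atrial marker Myl4 one of -0.26 (adjusted p = 0.898).

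Across the 6 hearts, the genes whose log2 CPM followed Cpxm2 most closely, out of 13091, were Uchl3 (Pearson r = 0.995, Spearman rho = 0.943), Acta1 (0.993 and 1), Comtd1 (0.986 and 0.943), Eno1 (0.985 and 0.886) and Gpank1 (0.984 and 0.829). Uchl3 is a ubiquitin hydrolase, Acta1 the skeletal form of muscle actin and Eno1 a glycolytic enolase. Acta1 was one of the 14 called genes, at 956, 761 and 1111 CPM in vehicle hearts 1 to 3 and 2539, 3148 and 2455 CPM in caffeine hearts 1 to 3. Its order of the 6 hearts was the same as that of Cpxm2, as held for 21 of the 13091 genes. Such values rest on 6 libraries that Cpxm2 splits by treatment, and 42 genes reached an r of 0.95, so they describe these hearts only.

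With the treatment means removed, the closest genes were Sec22b (r = 0.998), Tada2a (0.997), Ints7 (0.995), Lrrc8d (0.992) and Hsp25-ps1 (0.991), none of which was among the 5 above. What remained of Cpxm2 was 0.056, -0.147 and 0.090 in vehicle hearts 1 to 3 and 0.002, 0.027 and -0.029 in caffeine hearts 1 to 3. These r values thus rest mainly on the vehicle hearts, are the highest of 13091, and describe these hearts only. For the other members, r with Cpxm2 over the 6 hearts was -0.34 for Cpxm1, -0.39 for Aebp1, -0.066 for Cpe, 0.033 for Cpd and 0.19 for Cpm.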

How the data were processed

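Left ventricular RNA of 6 mice was sequenced, 3 per treatment. Per the labels and the study's methods, the authors selected poly(A) RNA and prepared libraries with a NEBNext mRNA kit. The study's methods do not say whether the libraries kept strand. Single-end 75-base reads were sequenced in 1 run and checked with FastQC. They were mapped with Tophat2 to mm10 (GRCm38) and counted per Ensembl gene with HTSeq. The authors deposited these raw counts for 43629 identifiers per heart, neither normalized nor pooled. Symbols, positions, exon lengths and transcripts came from GENCODE M21, where 1167 identifiers have no symbol. Groups and replicate numbers came from the sample labels.

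Genes were filtered with filterByExpr of edgeR 4.0.16 in R 4.3.3 (minimum count 10, minimum total 15), leaving 13092 of 22407 with a count, scaled by TMM, and tested for treatment, the only term, by quasi-likelihood F-tests (glmQLFit, glmQLFTest). Adjusted p-values are Benjamini-Hochberg values over all 13092. Calls needed an adjusted p below 0.05 and a fold change above 1.5. The common biological coefficient of variation was 12.1%. On simulated counts with 200 changed genes, 195 were recovered with 10 false calls among 13110. Recovery of genes with a difference as small as that of Cpxm2 was not tested, and the 195 of 200 is not given for such genes. Replicates of a treatment differed by more than sampling noise (chi-square per degree of freedom 5.71 to 15.1), so none was counted as a duplicate. CPM used TMM factors, except for the limit of genes without counts, which used total counts. Levels per kb divided CPM by the summed exon length. Codons were found by local alignment of the translated coding sequences with Cpe, and identities by alignment with Cpxm2 (Biopython 1.88, BLOSUM62).

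The members and the 153 genes of all lists were chosen with earlier results of these data known. Named genes were the 8 members, every called gene of a list, the 3 of highest mean CPM in each list, all mast cell markers, and the 5 closest to Cpxm2 by each of both correlations. The listed gene Klkb1 had no identifier. Other list genes, named for counts at or near 0, for treatments that do not overlap, for an unadjusted p or as genes next to a threshold, were chosen after their values were seen. One gene that the naming rule takes is not reported here. Alternatives were edgeR's exact and likelihood ratio tests, DESeq2 1.42.0, limma 3.58.1 (voom), size factors of the DESeq2 kind, scaling by library size alone, other filters, no fold threshold, the replicate number as a block and each heart left out.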

Additional observations from a re-analysis of the deposited data

How the results depend on the processing

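The number of genes called, 14, was 14 with limma-voom, DESeq2-type size factors, at least 10 counts in every heart and no fold threshold. It was 94 with edgeR's exact test, 101 with the likelihood ratio test, 67 with DESeq2, 27 with library size only (12 higher and 15 lower, against 11 and 3), 240 without the filter, and 4 to 28 with 1 heart left out. Cpxm2 was the 1 member called by the quasi-likelihood test and in 8 of the 10 settings that kept all 6 hearts. With library size only no member was called, 0 of 6, and the Cpxm2 log2 fold change was 0.51 (edgeR adjusted p = 0.0589). Without the filter the number was again 0, at 0.576 (edgeR adjusted p = 1.22e-05), under the fold threshold of 0.585. With 1 heart left out, 0 to 1 members were called and the Cpxm2 log2 fold change was 0.53 to 0.64. Its call was lost without vehicle 2 (adjusted p = 0.143), caffeine 1 (0.101), caffeine 2 (0.0935) or caffeine 3 (0.131) in edgeR's test. These fits have fewer samples. The median log2 fold change of all genes tested was 0.00088 in the main fit, -0.084 with library size only and -0.010 without the filter. For library size only and for the filter the cause of the lost call was not tested. Uncalled members with a log2 fold change near 0 changed sign. With 1 heart left out the ranges were -0.14 to 0.027 for Aebp1 (positive without caffeine 2), -0.11 to 0.036 for Cpe (0.036 without vehicle 1 and 0.0097 without caffeine 1), -0.11 to 0.14 for Cpd (-0.013 without vehicle 1 and -0.11 without caffeine 2) and -0.023 to 0.12 for Cpm (-0.023 without caffeine 2). With library size only, Cpd was at -0.053 and Cpm at -0.034. Same-numbered hearts did not deviate together (r = 0.045, -0.030 and -0.038), so the numbers were not taken as pairs. With the replicate number as a block, 40 genes and 1 member were called, and Cpxm2 had a log2 fold change of 0.60. Exon or longest-transcript length moved the levels per kb but not their order. Depth leaves Cpz and Cpa3 without a fold change.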
